A study of Homo sapiens with 4 samples.

Results

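The genes of glycolysis and of the response to low oxygen were examined as 48 named members. They were picked by function, but with earlier results of these data known. They are glycolytic enzymes, glucose and lactate transporters, the subunits and regulators of the hypoxia-inducible factors (HIF), and genes known as HIF targets. All 48 were among the 23228 genes of the count files, and 47 of them were among the 14012 genes with enough reads to be tested. By the labels, the cells were from MDA-MB-231, an established human triple negative breast cancer line. A fraction with high aldehyde dehydrogenase activity had been sorted with the ALDEFLUOR kit and grown in MammoCult medium. One group expressed a lentiviral short hairpin RNA (shRNA) against KDM1A and the other a control shRNA, both stably, and each group had 2 RNA sequencing libraries. KDM1A (LSD1) removes methyl groups from lysines of histone H3 and acts within the CoREST co-repressor. The labels name 1 KDM1A shRNA and no rescue, and do not say whether duplicate libraries are from separate cultures, so p-values cover the spread of duplicates that may be technical.

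Glycolysis splits glucose into pyruvate, and cancer cells often send much of that pyruvate to lactate even when oxygen is present. HIF is made of an oxygen-labile alpha subunit, encoded by HIF1A or EPAS1, and the stable partner encoded by ARNT. With oxygen, prolyl hydroxylases of the EGLN family mark the alpha subunit, and the VHL ubiquitin ligase then leads it to destruction, so much of the control of HIF is on protein and is not seen in RNA. Where alpha subunits are stable, HIF binds short promoter elements and raises many glycolytic enzymes, glucose transporters, the kinases that hold pyruvate out of mitochondria, and enzymes that modify collagen.

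Reads assigned to genes numbered 23902900 and 25761937 in the KDM1A shRNA libraries, against 24250377 to 26923678 in the control libraries. The target itself had 561 and 649 reads in the KDM1A shRNA libraries, against 4660 and 4059 in the control libraries. The difference in KDM1A reads thus went the way the labels say. Markers of mesenchymal-like triple negative lines were present in every library. VIM averaged 2115 CPM (counts scaled by library total) in KDM1A shRNA and 1845 CPM in control shRNA. CAV1 averaged 955 CPM in KDM1A shRNA and 454 CPM in control shRNA, and VIM, CAV1 and EGFR were called higher. FN1 averaged 2813 CPM in KDM1A shRNA and 6062 CPM in control shRNA, and FN1 and CD44 were called lower. Of the markers taken as low in such lines, ESR1 and PGR had at most 9 reads in any library. EPCAM averaged 25.2 CPM in KDM1A shRNA and 18.9 CPM in control shRNA. CDH1 averaged 8.16 CPM in KDM1A shRNA and 6.34 CPM in control shRNA, and both EPCAM and CDH1 were called higher. ALDH1A1 had 0 or 1 reads in each library, and ALDH1A3 averaged 4.66 CPM in KDM1A shRNA and 10.4 CPM in control shRNA. The control libraries also held reads of genes that the line is known to lack: CDKN2A, deleted in MDA-MB-231, had 13 and 19 reads in KDM1A shRNA, against 323 and 329 in control shRNA. Its neighbour MTAP, deleted with it, had 15 and 14 reads in KDM1A shRNA, against 271 and 256 in control shRNA. Summed over fixed markers of other cell types, levels were 29.1 and 33.2 CPM in KDM1A shRNA, against 71.8 and 72.4 CPM in control shRNA for 6 neuronal genes. They were 53.7 and 55.8 CPM in KDM1A shRNA, against 94.4 and 102 CPM in control shRNA, for 4 endothelial genes, and 125 and 127 CPM in KDM1A shRNA, against 179 and 182 CPM in control shRNA, for 5 leukocyte genes, where CD68 gave most reads. For 6 fibroblast genes they were 101 and 109 CPM in KDM1A shRNA, against 141 and 145 CPM in control shRNA. The lower fibroblast sum came from DCN, which averaged 55.0 CPM in KDM1A shRNA and 122.5 CPM in control shRNA. COL1A1, LUM and PDGFRB went the other way. Of these markers 2 neuronal, 4 endothelial, 2 leukocyte and 1 fibroblast gene were called lower and 1 neuronal and 3 fibroblast genes higher. Some defining markers were at or near 0, with no read of the neuronal gene ELAVL4 and at most 4 reads of the leukocyte gene PTPRC in any library, while NEFM, also neuronal, had 18 and 15 reads in KDM1A shRNA, against 1158 and 1005 in control shRNA. The reads of CDKN2A and MTAP go against the line named for the control libraries, and both control libraries hold them. Whether those libraries carry RNA of another line or of other cells, and the part of that in the results that follow, was not tested. Each fold change is thus a difference between the libraries labelled KDM1A shRNA and those labelled control shRNA, in which an effect of the shRNA and a difference in the cells cannot be told apart.

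Most members were lower in the KDM1A shRNA libraries. Of the 47 tested, 32 fell (68.1%) and 3 rose (6.38%) at an adjusted p under 0.05 in edgeR's quasi-likelihood test with Benjamini-Hochberg adjustment over all 14012 genes, and 12 did not pass. Over all tested genes the same test called 28.8% lower and 27.3% higher, 56.1% in all. These are the shares to set beside each count by role or list below. The median log2 fold change, KDM1A shRNA over control shRNA throughout, was −0.30 for the members and −0.0047 for all tested genes. Falls of 2-fold or more were seen in 5 of 47 members, SLC16A1, CA9, NDRG1, ALDOC and ENO2, and no member rose by that much. Over all tested genes 8.54% passed the test with falls and 3.07% with rises of that size. The share of members with such falls was thus near that of all tested genes. The levels of the groups did not overlap in 42 of 47 members (89.4%), against 77.7% of all tested genes. Without 1 library in turn, 27 to 34 members were lower and 2 to 5 higher, the 5 without control library 2. Read together, members took 1.72% of gene reads in both KDM1A shRNA libraries, against 1.92% and 1.96% in the control libraries. In bulk RNA, fewer cells of a kind and less RNA per cell cannot be told apart.

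**Figure D1:**
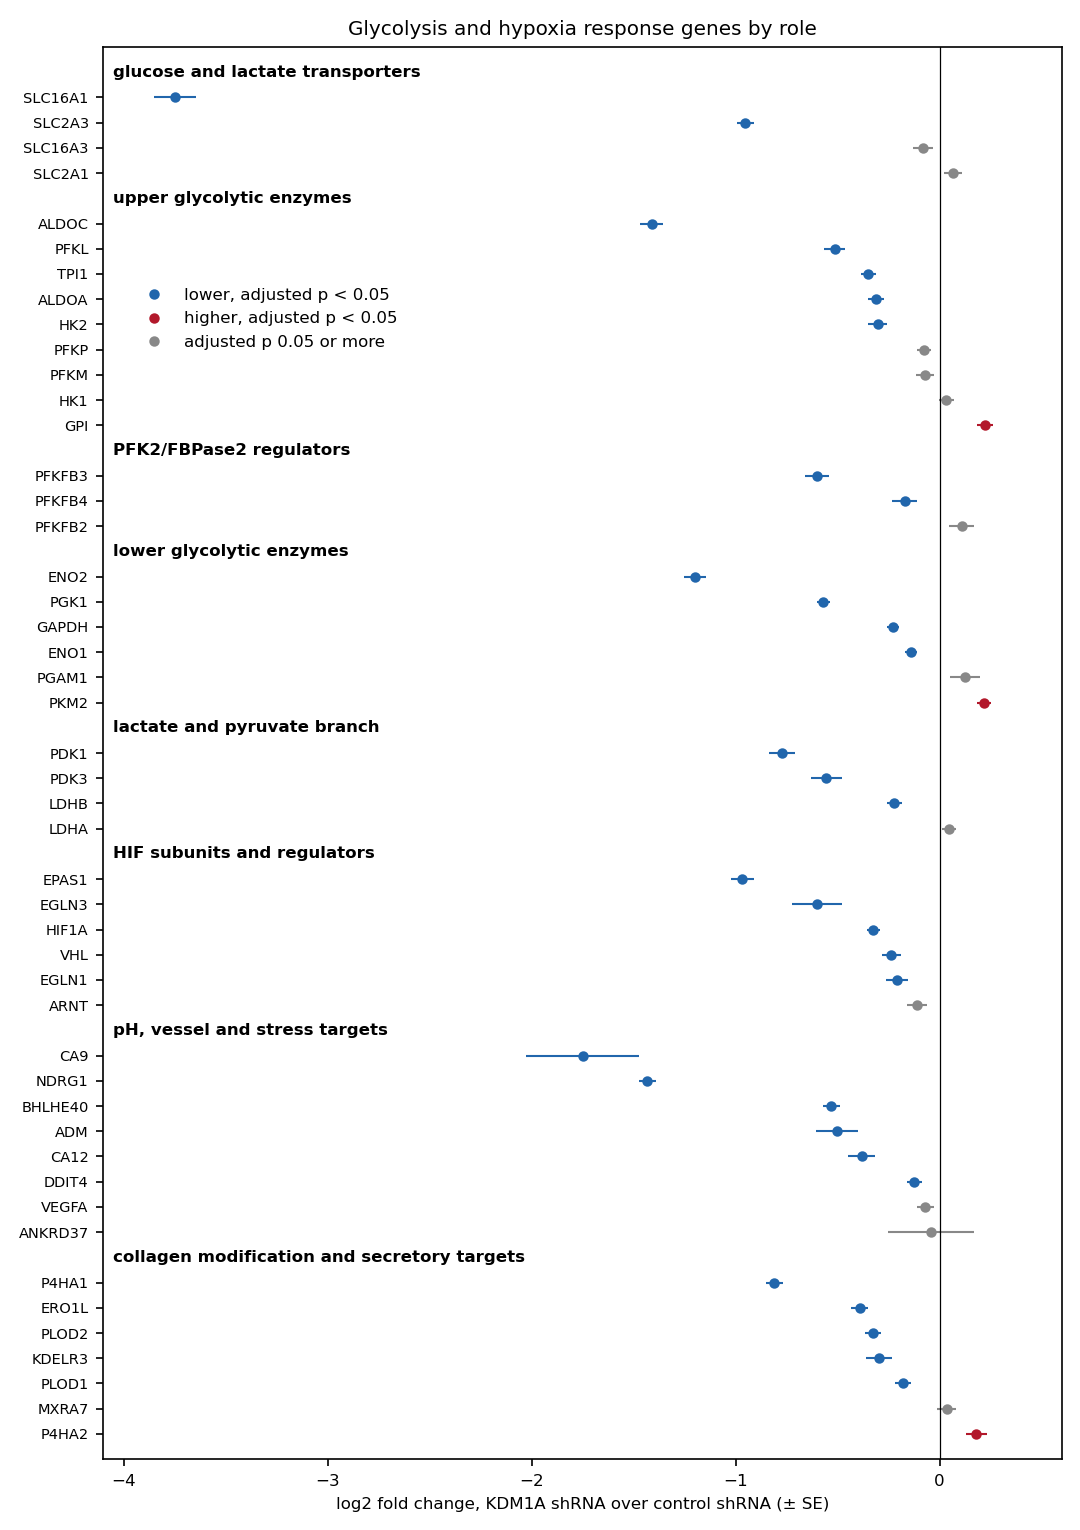
Log2 fold change (horizontal axis, KDM1A shRNA over control shRNA) with its standard error for the 47 tested members, grouped by role; blue and red points passed the edgeR test as lower and higher. SLC16A1 stands farthest to the left at −3.75, and the 3 red points, GPI, PKM2 and P4HA2, lie at 0.22 or below.

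Promoters of members that fell and rose are shown for the core HIF motif. The core was searched as ACGTG and GCGTG on both strands (CACGT and CACGC on the printed strand) in RefSeq windows (GRCh38.p14) of 250 bases before to 50 bases after the annotated start, 300 bases in all, using the first listed window of a gene. An ACGTG match can overlap CACGTG, the E-box bound by MYC and BHLHE40. A window was found for 42 members. PFKFB2, SLC2A3, SLC16A1, VHL, VEGFA and NDRG1 had none, so SLC16A1, the member with the largest fall, was not searched. ACGTG was present in 15 of the 28 windows of members called lower, in 1 of the 3 called higher and in 2 of the 10 not called, and in 26.3% of the 9646 windows of tested genes matched by symbol. GCGTG was present in 18 of 28 lower, 1 of 3 higher and 3 of 10 not called, against 50.2% of the windows of tested genes. Members were picked partly as known HIF targets, so a share of matches above that of all tested genes could be foreseen. A match is only a run of letters, and binding was not measured. The windows below belong to the 5 members with the largest falls, and then the 2 with the largest rises, among those with a single listed window, with the motif in capitals. They lie at chr9:35673678-35673977 (CA9, plus strand), chr17:28576846-28577145 (ALDOC, minus), chr12:6914330-6914629 (ENO2, plus), chr2:46297157-46297456 (EPAS1, plus), chr10:73096817-73097116 (P4HA1, minus), chr19:34364742-34365041 (GPI, plus) and chr15:72231141-72231440 (PKM2, listed by RefSeq as PKM, minus).
CA9: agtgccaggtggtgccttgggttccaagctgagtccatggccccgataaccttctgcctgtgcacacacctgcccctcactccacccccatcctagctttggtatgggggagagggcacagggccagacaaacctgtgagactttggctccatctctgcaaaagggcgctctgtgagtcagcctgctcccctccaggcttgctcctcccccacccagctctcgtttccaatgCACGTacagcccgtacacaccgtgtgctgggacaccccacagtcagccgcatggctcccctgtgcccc
ALDOC: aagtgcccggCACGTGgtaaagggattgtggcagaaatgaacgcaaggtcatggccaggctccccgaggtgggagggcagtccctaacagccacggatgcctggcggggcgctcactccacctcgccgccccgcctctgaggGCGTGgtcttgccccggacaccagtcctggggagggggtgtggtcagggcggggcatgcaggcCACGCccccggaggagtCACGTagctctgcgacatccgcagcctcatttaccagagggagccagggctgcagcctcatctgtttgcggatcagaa
ENO2: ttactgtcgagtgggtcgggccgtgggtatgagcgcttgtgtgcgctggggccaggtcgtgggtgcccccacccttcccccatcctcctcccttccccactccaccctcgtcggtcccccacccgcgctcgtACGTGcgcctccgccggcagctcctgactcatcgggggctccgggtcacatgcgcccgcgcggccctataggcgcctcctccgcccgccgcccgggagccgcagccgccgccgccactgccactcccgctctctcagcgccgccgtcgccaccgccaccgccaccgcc
EPAS1: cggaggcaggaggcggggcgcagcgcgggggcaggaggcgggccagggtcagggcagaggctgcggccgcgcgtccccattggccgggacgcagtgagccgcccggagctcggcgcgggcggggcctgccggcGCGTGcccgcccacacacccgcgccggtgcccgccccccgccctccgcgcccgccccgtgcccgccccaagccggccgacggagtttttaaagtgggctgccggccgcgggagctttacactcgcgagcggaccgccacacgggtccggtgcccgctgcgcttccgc
P4HA1: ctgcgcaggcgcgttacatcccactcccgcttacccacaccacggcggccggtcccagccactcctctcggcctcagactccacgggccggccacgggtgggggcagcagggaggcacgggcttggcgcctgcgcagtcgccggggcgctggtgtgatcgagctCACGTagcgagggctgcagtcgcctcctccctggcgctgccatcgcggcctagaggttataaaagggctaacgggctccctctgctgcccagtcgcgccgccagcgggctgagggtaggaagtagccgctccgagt
GPI: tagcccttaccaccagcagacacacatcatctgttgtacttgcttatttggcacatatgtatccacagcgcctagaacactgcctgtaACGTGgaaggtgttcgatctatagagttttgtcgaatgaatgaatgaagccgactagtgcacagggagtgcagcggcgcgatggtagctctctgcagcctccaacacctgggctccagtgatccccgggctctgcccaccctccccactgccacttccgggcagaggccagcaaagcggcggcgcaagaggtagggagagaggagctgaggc
PKM2: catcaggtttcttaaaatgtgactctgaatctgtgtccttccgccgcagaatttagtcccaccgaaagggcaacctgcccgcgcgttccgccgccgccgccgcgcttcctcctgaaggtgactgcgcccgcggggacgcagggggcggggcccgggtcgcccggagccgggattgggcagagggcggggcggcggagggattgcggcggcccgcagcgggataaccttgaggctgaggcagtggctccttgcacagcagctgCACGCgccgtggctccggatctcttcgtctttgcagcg
ALDOC held 2 sites with ACGTG, 1 of them a CACGTG, which reads as ACGTG on both strands and so gave 2 of its 3 matches, and 2 sites with GCGTG, the most among the printed windows. CA9, ENO2, P4HA1 and GPI each held 1 ACGTG and no GCGTG, and EPAS1 and PKM2 each held 1 GCGTG and no ACGTG. GPI, which rose, and CA9, which fell, thus had the same number of matches.

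The transporters had the widest range of fold changes among the roles. SLC16A1 encodes MCT1, a carrier that moves lactate and pyruvate with a proton across the plasma membrane, and lies on chromosome 1 at 113454469 to 113500215, minus strand (GRCh37). It had 77 and 99 reads in the KDM1A shRNA libraries, against 1215 and 1209 reads in the control libraries. Its level was 3.21 and 3.84 CPM in KDM1A shRNA, against 45.4 and 49.8 CPM in control shRNA (log2 fold change −3.75, SE 0.10, edgeR adjusted p = 8.4e-13). Each knockdown library was far below both controls, at 7.41% of the control mean. A fall at least as large was called in 307 of 14012 tested genes (2.19%). Of the genes deleted in the line, CDKN2A stood at 4.99% and MTAP at 5.65% of control, beside the 7.41% of SLC16A1, and MDA-MB-231 has been described as a line with little or no MCT1. Whether the SLC16A1 reads of the control libraries came from the same source as those of CDKN2A was not tested.

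SLC16A3, which encodes the lactate exporter MCT4, was the far more abundant of the pair. It had 641 and 657 CPM in KDM1A shRNA, against 642 and 734 CPM in control shRNA (−0.08, SE 0.05, edgeR adjusted p = 0.17). These groups overlapped. Leaving out a library leaves its group with 1, which is then assumed to vary like the pair of the other group, so adjusted p-values from such fits, here and for other genes, rest on the spread of 1 group alone. On that footing the gene passed as lower without control library 1 (−0.18, edgeR adjusted p = 1.0e-12) and stood at 0.016 without control library 2. Glucose enters through the GLUT carriers. SLC2A3, the high-affinity GLUT3, fell, with 90.4 and 88.6 CPM in KDM1A shRNA, against 174 and 173 CPM in control shRNA (−0.95, SE 0.04, edgeR adjusted p = 1.4e-10). SLC2A1, the widely expressed GLUT1, did not pass, with 335 and 339 CPM in KDM1A shRNA, against 307 and 336 CPM in control shRNA (0.07, SE 0.04, edgeR adjusted p = 0.20). It passed as higher without control library 2 (0.13, edgeR adjusted p = 2.3e-05). Of the 4 transporters, 2 therefore fell and 2 did not pass.

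**Figure D2:**
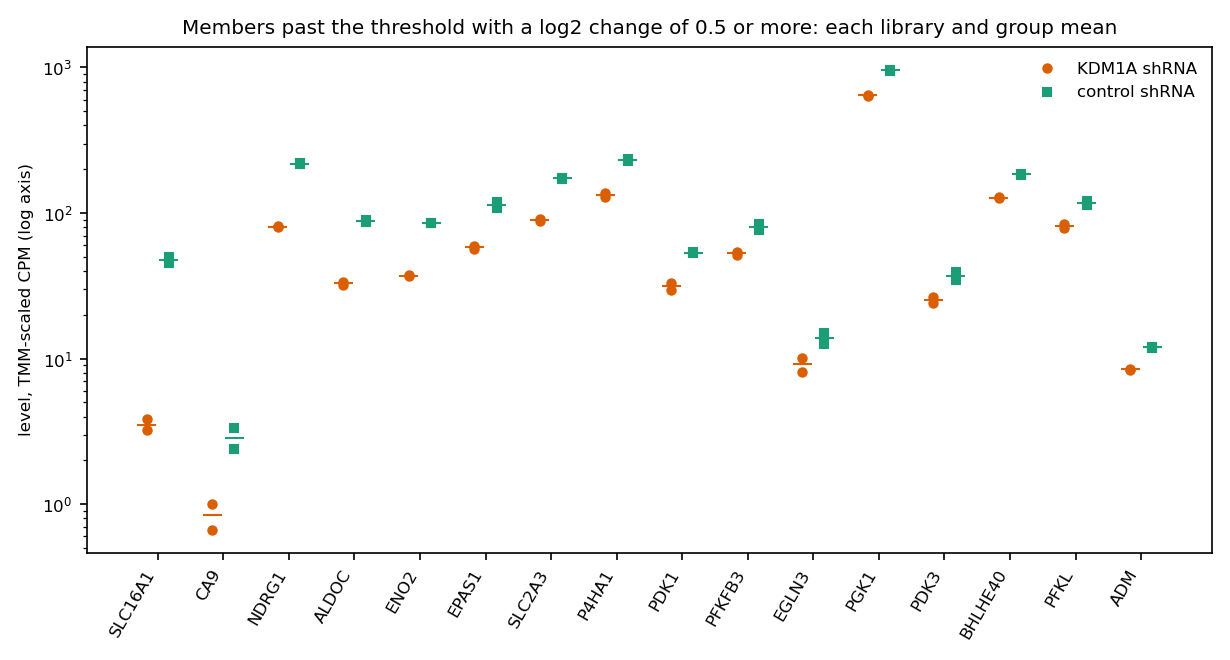
Level of each library (points, TMM-scaled CPM on a log axis) and group mean (lines) for the 16 members past the threshold with a log2 change of 0.5 or more in size, KDM1A shRNA left of control shRNA. In all 16 both knockdown libraries lie below both control libraries, as picking by the test makes likely, with the widest gap in SLC16A1. Over all tested genes the groups did not overlap in 77.7%.

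From glucose to triose phosphates, 5 of 9 enzymes fell, 1 rose and 3 did not pass. ALDOC, the aldolase isoenzyme best known from brain, fell most, with 33.7 and 32.3 CPM in KDM1A shRNA, against 86.6 and 88.9 CPM in control shRNA (−1.41, SE 0.06, edgeR adjusted p = 3.8e-11). Its libraries differed by less than 3 CPM within each group and did not overlap between them. ALDOA, the main aldolase of these cells, averaged 843 ± 13.2 CPM in KDM1A shRNA and 1045 ± 57.3 CPM in control shRNA (SD, 2 libraries each), a smaller fall of 0.31 on the log2 scale (SE 0.04). Phosphofructokinase makes the committed step of glycolysis, and of its 3 subunit genes the liver-type PFKL fell, with 79.4 and 83.6 CPM in KDM1A shRNA, against 113 and 120.4 CPM in control shRNA (−0.52, SE 0.05, edgeR adjusted p = 6.4e-07). The platelet-type PFKP (−0.08, SE 0.04, edgeR adjusted p = 0.084) and the muscle-type PFKM (−0.07, SE 0.04, edgeR adjusted p = 0.17) did not pass. PFKP passed as lower without control library 1 (−0.10, edgeR adjusted p = 9.2e-04), with a minimum mean of 5 CPM (0.031) and with upper-quartile scaling (0.026).

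Hexokinase traps glucose in the cell, and HK2, its inducible form, fell: it averaged 94.4 ± 5.03 CPM in KDM1A shRNA and 117 ± 2.05 CPM in control shRNA (−0.30, SE 0.05). HK1, the constant form, averaged 396 ± 8.72 CPM in KDM1A shRNA and 387 ± 8.06 CPM in control shRNA and did not pass (0.03, SE 0.04, edgeR adjusted p = 0.48). TPI1, which interconverts the triose phosphates, fell by 0.35 on the log2 scale (SE 0.04). GPI, the isomerase between hexokinase and phosphofructokinase, rose, with 422 and 417 CPM in KDM1A shRNA, against 348 and 372 CPM in control shRNA (0.22, SE 0.04, edgeR adjusted p = 2.2e-04).

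The PFKFB enzymes set the level of fructose 2,6-bisphosphate, the activator of phosphofructokinase. PFKFB3, the form with the strongest kinase activity, fell, with 51.3 and 54.1 CPM in KDM1A shRNA, against 83.7 and 76.2 CPM in control shRNA (−0.60, SE 0.06, edgeR adjusted p = 6.9e-07). PFKFB4 fell by 0.17 on the log2 scale (SE 0.06, edgeR adjusted p = 0.023). It did not pass with control library 1 (edgeR adjusted p = 0.067), KDM1A shRNA library 1 (0.19) or KDM1A shRNA library 2 (0.092) left out, or in DESeq2 (DESeq2 adjusted p = 0.11), which leaves 1 of these 3 genes lower. PFKFB2 did not pass (0.11, SE 0.06, edgeR adjusted p = 0.14).

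Of the 6 enzymes from glyceraldehyde phosphate to pyruvate, 4 fell, 1 rose and 1 did not pass. ENO2, the enolase known as neuron-specific, fell most, with 37.4 and 36.96 CPM in KDM1A shRNA, against 85.3 and 85.4 CPM in control shRNA (−1.20, SE 0.05, edgeR adjusted p = 1.4e-10). ENO1, the main enolase, averaged 2913 ± 17.6 CPM in KDM1A shRNA and 3212 ± 48.6 CPM in control shRNA (−0.14, SE 0.03, edgeR adjusted p = 0.0014). With KDM1A shRNA library 1 left out it did not pass (edgeR adjusted p = 0.059), nor with library 2 left out (0.088). PGK1, which makes the first ATP of the pathway, fell at a high level, with 641 and 643 CPM in KDM1A shRNA, against 960.3 and 946 CPM in control shRNA (−0.57, SE 0.03, edgeR adjusted p = 2.8e-09). The 2 libraries of each PGK1 group were within 15 CPM of each other. GAPDH, which oxidises glyceraldehyde phosphate and is often used as a reference gene, was 2114 and 2147 CPM in KDM1A shRNA, against 2501 and 2491 CPM in control shRNA (−0.23, SE 0.03, edgeR adjusted p = 2.0e-05).

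PKM2 in the files is the gene now named PKM, whose counts do not separate its muscle and proliferative splice forms. It rose, with 1829 and 1791 CPM in KDM1A shRNA, against 1537 and 1577 CPM in control shRNA (0.22, SE 0.03, edgeR adjusted p = 5.1e-05). PGAM1, the mutase, stood at only 31.7 ± 1.09 CPM in KDM1A shRNA and 29.1 ± 2.17 CPM in control shRNA (0.12, SE 0.07, edgeR adjusted p = 0.16) and passed as higher without control library 2 (0.20, edgeR adjusted p = 0.020). GAPDH, PGAM1 and several other glycolytic genes have many processed pseudogenes, and alignments that were not unique were left uncounted, so levels of such genes are uncertain.

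At the end of the pathway pyruvate goes to lactate or into mitochondria. LDHA, the lactate dehydrogenase subunit tied to lactate production, did not pass, with 1467 and 1486 CPM in KDM1A shRNA, against 1466 and 1396 CPM in control shRNA (0.05, SE 0.03, edgeR adjusted p = 0.28). Without control library 1 it passed as higher (0.08, edgeR adjusted p = 1.7e-04). LDHB, the heart-type subunit, fell to 758 ± 1.92 CPM in KDM1A shRNA, against 883 ± 29.3 CPM in control shRNA (−0.22, SE 0.04). The pyruvate dehydrogenase kinases shut the mitochondrial route, and the members PDK1 and PDK3 fell, while their paralogs PDK2 rose (0.40, SE 0.08, edgeR adjusted p = 4.1e-04) and PDK4 did not pass (0.03, SE 0.06, edgeR adjusted p = 0.71). PDK1 had 29.8 and 32.9 CPM in KDM1A shRNA, against 53.1 and 53.9 CPM in control shRNA (−0.77, SE 0.06, edgeR adjusted p = 1.2e-07). PDK3 had 26.3 and 24.2 CPM in KDM1A shRNA, against 39.4 and 34.6 CPM in control shRNA (−0.56, SE 0.08, edgeR adjusted p = 2.6e-05). For PDK1 and PDK3 the groups did not overlap.

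Where 1 step is served by several paralogs, the share of a paralog that had fallen was set against the others. Shares were taken from CPM per kilobase of the canonical GENCODE transcript, so that genes can be compared, and are given as percent of the paralogs' sum. ALDOC made up 3.96% and 3.72% of the aldolases in KDM1A shRNA, against 8.08% and 7.70% in control shRNA. ENO2 was 0.983% and 0.979% of its sum with ENO1 in KDM1A shRNA, against 2.04% and 2.00% in control shRNA. SLC2A3 was 19.3% and 18.8% of its sum with SLC2A1 in KDM1A shRNA, against 33.3% and 31.2% in control shRNA. In each of these 3 pairs the named paralog, the one with the lower level, had a smaller share in KDM1A shRNA. SLC16A1 was 0.346% and 0.402% of its sum with SLC16A3 in KDM1A shRNA, against 4.66% and 4.49% in control shRNA. HK2 was 12.6% and 13.9% of its sum with HK1 in KDM1A shRNA, against 16.1% and 16.2% in control shRNA, and LDHB 47.1% and 46.7% of the LDH pair in KDM1A shRNA, against 51.5% and 51.5% in control shRNA. PFKL was 13.0% and 13.7% of the 3 phosphofructokinase genes in KDM1A shRNA, against 17.1% and 17.6% in control shRNA. PFKFB3 was 40.0% and 40.8% of the 3 PFKFB genes in KDM1A shRNA, against 49.9% and 48.6% in control shRNA. Each named paralog was one already called lower, with a larger fall than its partners, so a smaller share restates those calls. None of these shares overlapped between groups. They were not tested, since with 2 libraries a group the smallest two-sided p of an exact permutation test is 0.33.

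**Figure D3:**
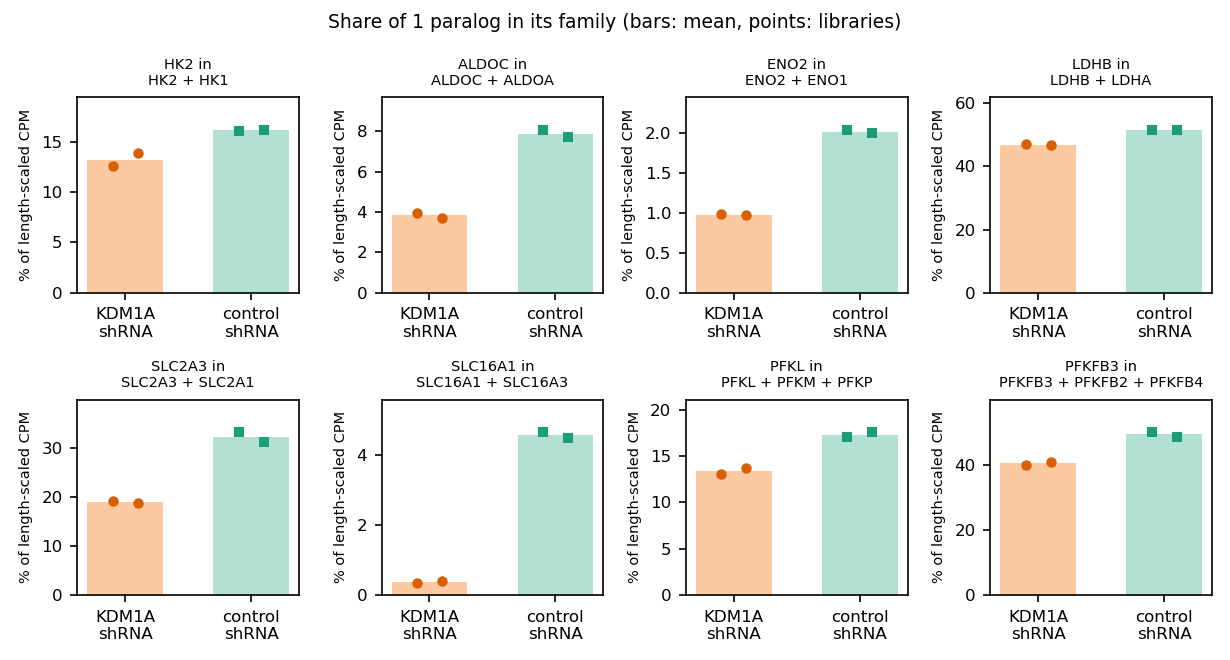
Share of 1 paralog in the summed length-scaled CPM of the paralogs compared (vertical axis, percent, from 0), with bars for group means and points for libraries, KDM1A shRNA left of control shRNA. ALDOC averages 3.84% in KDM1A shRNA and 7.89% in control shRNA, and LDHB 46.9% in KDM1A shRNA and 51.5% in control shRNA.

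On the scale of CPM per kilobase, the order of the most abundant members changed little. GAPDH (1658 in KDM1A shRNA and 1942 in control shRNA) and ENO1 (1636 in KDM1A shRNA and 1803 in control shRNA) were first and second in both groups. PKM2, LDHA and LDHB followed in that order in KDM1A shRNA, with 785, 659 and 581 CPM per kilobase. In control shRNA the same places were held by LDHB, PKM2 and LDHA, with 678, 676 and 638 CPM per kilobase, a narrower set. CA9, SLC16A1 and EGLN2 had the 3 lowest values in KDM1A shRNA, though the counts of EGLN2 say nothing about its level, as set out below. SLC16A1 ranked 46 of 48 in KDM1A shRNA and 40 of 48 in control shRNA, and ALDOC 29 of 48 in KDM1A shRNA and 22 of 48 in control shRNA.

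Among the HIF subunits and regulators, 5 of 6 tested genes fell and none passed as higher. EPAS1, encoding HIF-2 alpha, fell most, with 59.7 and 56.4 CPM in KDM1A shRNA, against 109 and 118 CPM in control shRNA (−0.97, SE 0.06, edgeR adjusted p = 2.4e-09). HIF1A was the more abundant alpha subunit, with 859 and 846 CPM in KDM1A shRNA, against 1063 and 1073 CPM in control shRNA (−0.32, SE 0.03, edgeR adjusted p = 9.7e-07). For neither gene did the groups overlap. ARNT, the shared partner, had 71.5 and 74.8 CPM in KDM1A shRNA, against 78.9 and 79.0 CPM in control shRNA and did not pass (−0.11, SE 0.05, edgeR adjusted p = 0.071). It passed as lower with upper-quartile scaling (edgeR adjusted p = 0.029) and with a minimum mean of 5 CPM (0.033).

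Of the members that act against HIF, VHL, EGLN1 and EGLN3 were lower. HIF1AN, which hydroxylates HIF alpha at an asparagine and is not a member, did not pass (0.06, SE 0.05, edgeR adjusted p = 0.32). VHL had 107 and 109.9 CPM in KDM1A shRNA, against 132 and 124 CPM in control shRNA (−0.24, SE 0.05, edgeR adjusted p = 4.9e-04). EGLN1, the main prolyl hydroxylase, had 54.1 and 52.8 CPM in KDM1A shRNA, against 59.9 and 63.7 CPM in control shRNA (−0.21, SE 0.06, edgeR adjusted p = 0.0050), but did not pass when KDM1A shRNA library 2 was left out (edgeR adjusted p = 0.079). EGLN3, a hydroxylase that is itself a HIF target, had 10.1 and 8.14 CPM in KDM1A shRNA, against 14.9 and 12.6 CPM in control shRNA (−0.60, SE 0.12, edgeR adjusted p = 7.0e-04). EGLN2 had 1 read in each KDM1A shRNA library and 0 reads in each control library, which allows up to 3 counts, or 0.112 to 0.124 CPM in the control libraries, and it was not tested. Its exons overlap the read-through gene RAB4B-EGLN2, which also had 0 reads in every library, and reads over more than 1 gene were set aside, so these counts say nothing about the level of EGLN2.

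Targets outside glycolysis fell in 6 of 8 genes for pH, vessels and stress, with none called higher. CA9, a carbonic anhydrase at the cell surface and a classical marker of HIF activity, was low in all libraries, with 16 and 26 reads in KDM1A shRNA, against 64 and 81 reads in control shRNA. Its level was 0.668 and 1.01 CPM in KDM1A shRNA, against 2.39 and 3.34 CPM in control shRNA (−1.75, SE 0.28, edgeR adjusted p = 8.4e-05). CA12, a related enzyme, fell less (−0.38, SE 0.07). NDRG1, a stress gene strongly induced by low oxygen, fell, with 81.5 and 79.7 CPM in KDM1A shRNA, against 215 and 219.8 CPM in control shRNA (−1.43, SE 0.04, edgeR adjusted p = 1.8e-12). The repressor BHLHE40 had 126 and 129 CPM in KDM1A shRNA, against 186 and 182 CPM in control shRNA (−0.53, SE 0.04, edgeR adjusted p = 5.5e-08). ADM, the vasodilator peptide adrenomedullin, had 8.51 and 8.33 CPM in KDM1A shRNA, against 11.9 and 11.99 CPM in control shRNA (−0.50, SE 0.10, edgeR adjusted p = 7.2e-04). In these genes too the groups did not overlap.

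VEGFA, the main growth factor for vessels, did not pass, with 258 and 249 CPM in KDM1A shRNA, against 257 and 275 CPM in control shRNA (−0.07, SE 0.04, edgeR adjusted p = 0.17). It passed as lower without control library 1 (−0.12, edgeR adjusted p = 3.9e-04). DDIT4, an inhibitor of mTORC1, averaged 872 ± 12.4 CPM in KDM1A shRNA and 950.1 ± 31.8 CPM in control shRNA (−0.12, SE 0.04, edgeR adjusted p = 0.0080), but did not pass with KDM1A shRNA library 1 left out (edgeR adjusted p = 0.18) or library 2 left out (0.093). ANKRD37, a small HIF target, had 57 and 61 reads in KDM1A shRNA, against 75 and 50 reads in control shRNA (−0.04, SE 0.21, edgeR adjusted p = 0.87), groups that overlapped at this depth.

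Of the 7 targets that act on collagen and in the secretory pathway, 5 fell and 1 rose. P4HA1, the catalytic subunit of collagen prolyl 4-hydroxylase, fell, with 128 and 136 CPM in KDM1A shRNA, against 235 and 229 CPM in control shRNA (−0.81, SE 0.04, edgeR adjusted p = 1.0e-09). Its paralog P4HA2 went the other way, with 87.0 and 81.0 CPM in KDM1A shRNA, against 72.5 and 75.7 CPM in control shRNA (0.18, SE 0.05, edgeR adjusted p = 0.0087), though it did not pass with KDM1A shRNA library 1 left out (edgeR adjusted p = 0.19), which leaves 0 of 7 higher. The lysyl hydroxylase PLOD2 fell by 0.33 on the log2 scale (SE 0.04) and PLOD1 by 0.18 (SE 0.04), the call of PLOD1 being lost without KDM1A shRNA library 2 (edgeR adjusted p = 0.077). ERO1L, an oxidase for disulfide bonds in the endoplasmic reticulum, fell by 0.39 (SE 0.04), and the retrieval receptor KDELR3 by 0.30 (SE 0.06). MXRA7, named for matrix remodelling, averaged 89.7 ± 1.31 CPM in KDM1A shRNA and 87.5 ± 0.558 CPM in control shRNA and did not pass (0.03, SE 0.05, edgeR adjusted p = 0.55).

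Other genes of the same pathways were counted from 5 further lists, also chosen with earlier results of these data known. Of 45 tested other HIF targets, 27 were lower (60%), 6 higher and 12 not called, with a median of −0.21. The transferrin receptor TFRC had 300.3 and 306 CPM in KDM1A shRNA, against 607 and 558 CPM in control shRNA (−0.94, SE 0.04, edgeR adjusted p = 1.5e-10). The circadian repressor BHLHE41 (−1.52, SE 0.08), the collagen cross-linking oxidase LOX (−0.66, SE 0.04) and the secreted stanniocalcin STC2 (−2.68, SE 0.17) also fell. Of 24 tested other HIF pathway regulators, 7 were lower (29.2%) and 2 higher (8.33%), with a median of −0.01; the lower share is near the 28.8% of all tested genes. Among them the ARNT paralog ARNT2 (−0.68, SE 0.09), the clock factor ARNTL2 (−0.54, SE 0.06) and GNB2L1, which encodes RACK1 (−0.27, SE 0.03), fell, and the mTORC1 subunit RPTOR rose (0.32, SE 0.05). Without control library 1 or control library 2, 5 of these regulators were higher.

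The 29 tested further genes of glycolysis, gluconeogenesis, glycogen and hexose transport had 9 lower and 9 higher (31.0% each), near the 28.8% and 27.3% of all tested genes, with a median of 0.04. Without KDM1A shRNA library 2, 4 were higher. FBP1, which reverses the phosphofructokinase step, had 16.0 and 16.9 CPM in KDM1A shRNA, against 4.70 and 4.94 CPM in control shRNA (1.77, SE 0.11, edgeR adjusted p = 5.8e-09). The hexokinase-like gene HKDC1 had 23.3 and 22.1 CPM in KDM1A shRNA, against 7.17 and 7.13 CPM in control shRNA (1.67, SE 0.09, edgeR adjusted p = 1.9e-09). Both were higher in each knockdown library than in either control. PGM2L1, which makes glucose bisphosphate, rose (1.06, SE 0.08), and the transporter SLC2A10 had 0.751 and 1.08 CPM in KDM1A shRNA, against 6.94 and 7.01 CPM in control shRNA (−2.91, SE 0.20, edgeR adjusted p = 1.6e-08).

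The list of pyruvate dehydrogenase and pyruvate entry into mitochondria also holds the kinases and phosphatases of the complex and the malic enzymes. Of its 15 tested genes 8 were higher (53.3%) and 2 lower (13.3%), against 27.3% and 28.8% of all tested genes. Its median was 0.10. The higher genes were DLAT, DLD, BRP44L, BRP44, PDK2, ME1, ME2 and ME3. Of the other subunits of the complex, PDHA1 and PDHB did not pass and PDHX was lower. BRP44, now named MPC2, a subunit of the mitochondrial pyruvate carrier, rose (0.48, SE 0.07), as did the malic enzyme ME3 (0.38, SE 0.07) and PDK2 (0.40, SE 0.08). PDP1, the phosphatase that opposes the kinases, fell (−0.48, SE 0.05). The count of higher genes was 5 without KDM1A shRNA library 1 and 4 without library 2, and 1 gene was lower when either of these or control library 1 was left out. In the pentose phosphate pathway, which branches off at glucose 6-phosphate, 7 of 12 were lower (58.3%) and 1 higher (8.33%), with a median of −0.13. Over all tested genes 28.8% were lower and 27.3% higher. The endoplasmic reticulum dehydrogenase H6PD (−0.41, SE 0.04), the isomerase RPIA (−0.48, SE 0.07) and the PRPP synthetase PRPS1 (−0.35, SE 0.05) fell. Without KDM1A shRNA library 1 or library 2, 4 of the 12 were lower.

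**Figure D4:**
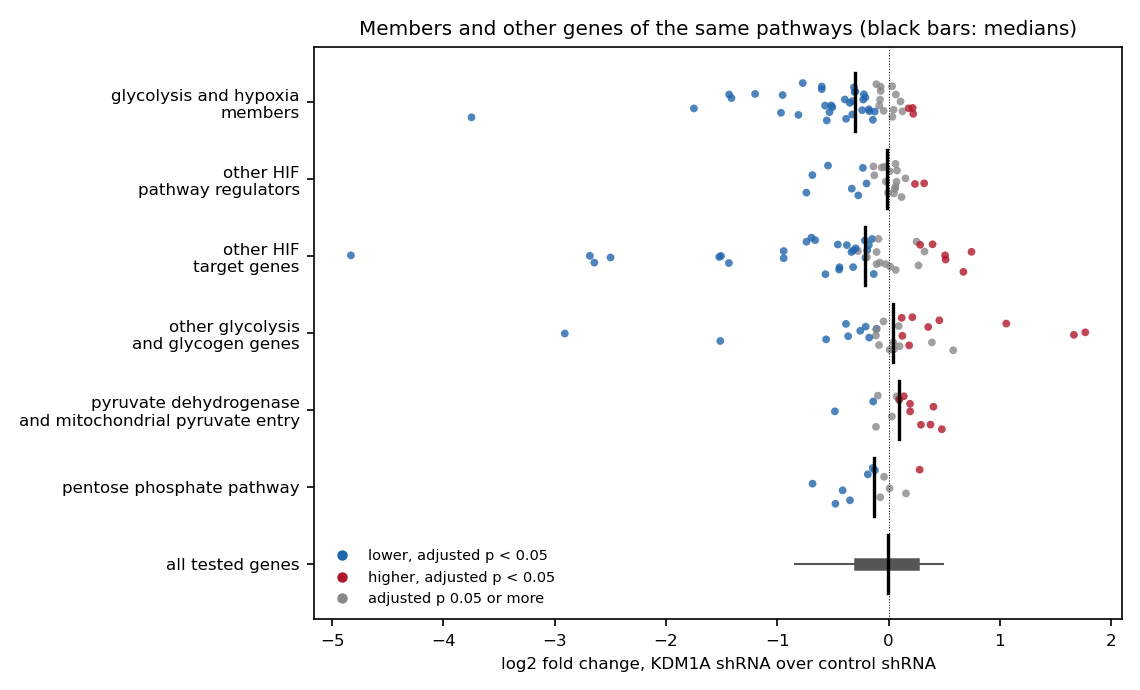
Log2 fold change (horizontal axis, KDM1A shRNA over control shRNA) of the members and of 5 further lists, 1 point per gene, with list medians as black bars; the bottom row shows all tested genes (thick bar, middle 50%; thin line, middle 80%). Medians are −0.30 for the members and −0.21 for other HIF targets. The median is 0.10 for the pyruvate dehydrogenase and pyruvate entry list, which also holds kinases, phosphatases and malic enzymes.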

How the data were processed

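Per the labels' protocols, total RNA from both groups was made into TruSeq libraries and read as single ends of 100 bases. The authors deposited raw read counts by gene symbol, with 1 file for each library. HTSeq, TopHat2 2.0.8b and CASAVA 1.8.2 with hg19 are named, per the submitters' processing notes. Whether counting used strand is not given in the sources. In GENCODE v44 lifted to GRCh37, exons of 23 members overlap a gene on the opposite strand, whose reads could then not be told apart, and those of 10 overlap a gene on the same strand. The 5 HTSeq summary lines were left out. They include alignments that were not unique, 29.7% and 29.8% of each file's total in KDM1A shRNA and 31.9% and 32.2% in control shRNA.

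The test was run on the counts in edgeR 4.0.16 under R 4.3.3 (TMM normalization, filterByExpr with a minimum count of 10 and a minimum total of 15, quasi-likelihood test of the group term, Benjamini-Hochberg adjustment over 14012 genes, threshold 0.05), and the script was tried on simulated counts. Standard errors are the size of the log2 fold change over the root of the F statistic. Levels are TMM-scaled CPM. A gene with 0 reads could have had up to 3 counts, 0.112 to 0.125 CPM by library, which covers counting error only. Lengths are those of canonical transcripts. Older symbols were matched through RefSeq synonyms. Members and lists were chosen with earlier results of these data known. Every member is named, with each library's level where the change passed the test with an absolute log2 fold change of 0.5 or more, and from each of the 5 further lists up to 4 called genes with the smallest p, except 1 gene not reported here. Libraries of 1 group differed by more than sampling noise (chi-square over its degrees of freedom was 1.60 in KDM1A shRNA and 3.97 in control shRNA). Alternatives were RLE and upper-quartile scaling, library size alone, 2 other filters, DESeq2 1.42.0, limma-voom (limma 3.58.1), the replicate number as a block, and leaving out each library.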

Additional observations from a re-analysis of the deposited data

How the results depend on the processing

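Of the 47 tested members, 33 kept their direction and their side of the threshold in every alternative that tested them. No call turned round, but 2 members that did not pass changed sign, ANKRD37, between −0.24 without control library 2 and 0.20 without control library 1, and SLC16A3, between −0.18 without control library 1 and 0.016 without control library 2. With a library left out, its group has 1 library, which is assumed to vary like the pair of the other group. The count of lower members was 31 to 34 and of higher members 3 under the alternatives that kept all libraries, DESeq2 giving the 31. Without 1 library in turn, members lower ranged between 27 and 34 and members higher between 2 and 5, all genes lower between 3146 and 4168, and all genes higher between 2832 and 4042. The labels give both groups the numbers 1 and 2, but libraries with the same number did not deviate together (r = 0.02 across genes, which are not replicates). With the number as a block, 32 members were lower and 3 higher, as without it, and 4164 genes were lower and 3978 higher. With no filter beyond 1 count, or in DESeq2, 1 gene of the pyruvate dehydrogenase and pyruvate entry list was lower in place of 2. Shares of paralogs taken on raw reads, which favour long transcripts, were in KDM1A shRNA 19.2% for HK2, 1.26% for ENO2, 33.9% for LDHB, 21.0% for SLC2A3, 0.539% for SLC16A1, 14.1% for PFKL and 39.1% for PFKFB3. In control shRNA they were 23.1% for HK2, 2.59% for ENO2, 38.2% for LDHB, 35.0% for SLC2A3, 6.48% for SLC16A1, 18.2% for PFKL and 48.7% for PFKFB3. No scaling moved the median of all genes by more than 0.1 on the log2 scale. CA9, ANKRD37 and EGLN3 rest on few reads, which limits their precision.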
